A study of Homo sapiens with 2 samples.

Results

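The regions described here are stretches of chromatin that carried a DEK ChIP-seq peak in both replicate libraries and that lay deep inside long protein-coding genes. Peaks of the 2 libraries that overlapped by at least 1 bp on chromosomes 1 to 22 were merged into 12456 shared regions. A region was kept where the replicate 1 summit, the point of highest signal, lay inside a RefSeq protein-coding gene of at least 200 kb and at least 5 kb from both gene ends. This left 1893 regions, 15.2% of all shared regions (95% Wilson interval 14.6 to 15.8%), in 658 of 1340 such genes. The cells were 786-O, an established human renal carcinoma line with a wild-type genotype label, and both libraries, replicates 1 and 2, were titled negative control, described with the word Cas9 and precipitated with an antibody labelled DEK. The titles leave unsaid what the control is, the cells or the antibody step, and whether the replicates were separate cultures, so the spread between them may be technical. No input library and no DEK-edited sample was analysed here, and with 1 group of 2 libraries no test over samples can be made. The files held 19128 peaks for replicate 1 and 24580 for replicate 2, of which 18794 and 24144 lay on chromosomes 1 to 22.

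DEK is an abundant, non-histone chromatin protein that binds DNA with a preference for structure over sequence and that can act as a histone chaperone. Long genes consist almost wholly of introns, and their introns hold many of the enhancers and alternative promoters that act on them. Many of the longest human genes encode neuronal adhesion molecules and ion channels, and several of them span common fragile sites, which replicate late and break under replication stress.

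Sequence was at hand only before alternative starts annotated within the long genes, and the windows that a region covers are shown as examples of the DNA under the regions. Of 1042 windows of 250 bases before such internal starts, in 515 long genes, 25 (2.40%) in 21 genes were overlapped by 24 of the 1893 regions. Windows from the same gene are not independent. The 5 windows that lay wholly inside a region and whose regions ranked highest are printed 5′ to 3′ on the strand of the gene, from RefSeq on GRCh38.p14. Capitals mark each match to TGANTCA, the motif of AP-1 transcription factors.
SEPTIN9, chr17:77404827-77405076, plus strand: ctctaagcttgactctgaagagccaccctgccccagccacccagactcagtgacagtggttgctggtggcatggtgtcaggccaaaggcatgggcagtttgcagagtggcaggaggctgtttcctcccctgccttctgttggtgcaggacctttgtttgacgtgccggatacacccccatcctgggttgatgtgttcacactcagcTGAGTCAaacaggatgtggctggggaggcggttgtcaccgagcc
MICAL2, chr11:12138140-12138389, plus strand: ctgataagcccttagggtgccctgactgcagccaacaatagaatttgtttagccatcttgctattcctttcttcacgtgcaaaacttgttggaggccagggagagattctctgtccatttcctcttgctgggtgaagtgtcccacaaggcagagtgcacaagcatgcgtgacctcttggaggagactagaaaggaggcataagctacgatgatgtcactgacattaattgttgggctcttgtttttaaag
MACF1, chr1:39204445-39204694, plus strand: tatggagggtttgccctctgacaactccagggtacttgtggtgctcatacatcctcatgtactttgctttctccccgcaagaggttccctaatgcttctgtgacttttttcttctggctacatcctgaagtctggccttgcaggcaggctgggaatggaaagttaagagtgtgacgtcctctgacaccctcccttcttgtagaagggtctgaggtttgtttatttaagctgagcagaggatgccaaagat
LTBP1, chr2:33134346-33134595, plus strand: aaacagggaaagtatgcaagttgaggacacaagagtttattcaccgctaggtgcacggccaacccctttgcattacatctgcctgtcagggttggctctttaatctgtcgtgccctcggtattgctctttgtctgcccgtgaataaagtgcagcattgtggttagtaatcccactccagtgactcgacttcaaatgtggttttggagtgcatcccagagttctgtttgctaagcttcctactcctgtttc
KCNMA1, chr10:77350762-77351011, minus strand: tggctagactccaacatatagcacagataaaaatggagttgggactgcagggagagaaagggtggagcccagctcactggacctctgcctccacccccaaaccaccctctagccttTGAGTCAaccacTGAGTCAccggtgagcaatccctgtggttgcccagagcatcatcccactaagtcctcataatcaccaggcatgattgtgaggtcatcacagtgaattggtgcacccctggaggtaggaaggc

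The deposited fold enrichment, the signal of a library at a summit over its local background, was 4.93 and 6.31 in replicates 1 and 2 at the start inside SEPTIN9, which encodes a filament-forming septin. It was 4.87 and 4.8 in MICAL2, an enzyme that oxidises actin, and 4.51 and 4.8 in MACF1, a linker of microtubules and actin. These starts lie 123.6 kb, 27.8 kb and 120.5 kb downstream of the outermost annotated starts. LTBP1, which encodes a binding protein of latent TGF-beta, had 4.44 and 4.30 at a start 187.6 kb downstream. The region in KCNMA1, the pore-forming subunit of the BK potassium channel, had 4.26 and 4.41, at an alternative start 287.0 kb into the gene whose window holds 2 AP-1 matches 5 bases apart. The replicates agreed within 0.1 on the fold scale in MICAL2, while in SEPTIN9 they stood more than 1 apart.

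The AP-1 motif TGANTCA, which reads the same on both strands, was found in 20% of the 25 internal windows with a region, in 9.05% of the 1017 internal windows without one and in 6.54% of 33725 RefSeq windows in all. The TEAD motif GGAATG, searched on both strands, was found in 32.0% of windows with a region, in 13.1% of internal windows without one and in 11.9% of all windows. TGTGGT, a RUNX motif, was found in 24%, 12.2% and 11% of the same 3 sets. Of the 9 motifs searched, these 3 are shown for having the widest gaps. GGGCGG, the GC box of many promoters, was found in 24% of windows with a region and in 26.7% of internal windows without one, against 42.7% of all windows. The GATA motif GATAAG went the other way, with 4% of windows with a region and 8.36% of internal windows without one. The remaining 4 stood at 4% and 3.34% for CACGTG, the E-box, at 12% and 7.96% for the ETS motif CCGGAA, at 20% and 14.3% for ACGTG, the core of HIF sites, and at 4% and 4.92% for the forkhead motif TGTTTAC, with a region and without. The shares count whole windows, and only 11 of the 25 windows lay wholly inside their region. With 25 windows, a single window more or fewer moves these shares by several points. A match is a description of the letters and not a site.

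Regions were sparser in long genes than in shorter ones. The interiors of the 1340 long genes, 547.5 Mb in union, held 0.346 regions per 100 kb (95% Poisson interval 0.330 to 0.362, counting error only), against 0.689 (0.667 to 0.712) in the interiors of 12458 protein-coding genes of 10 to 200 kb, which held 3519 regions in 510.5 Mb. The ratio was 0.502. Peaks of the single libraries gave 0.538 per 100 kb of long genes against 1.01 of shorter genes in replicate 1, and 0.672 against 1.26 in replicate 2. The ratios of the libraries, 0.535 and 0.531, differed by less than a hundredth, with a mean of 0.533 ± 0.00269 (SD, n = 2).

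The decline with length ran through the long genes themselves, down to the lowest density beyond 1 Mb. Genes of 100 to 200 kb held 0.621 regions per 100 kb, those of 200 to 300 kb 0.547, those of 300 to 500 kb 0.400, those of 500 to 1000 kb 0.252 and those of 1000 to 2500 kb 0.102 (0.0821 to 0.125). The intervals of the 4 long classes do not overlap. They treat regions as independent, though many regions share a gene, so they are too narrow to serve as a test between classes. Gene by gene the relation was weak, with a Spearman's rho of -0.0935 between length and density over the 1340 long genes, of which 682 had no region. Each library showed the same order, with 0.817, 0.635, 0.403 and 0.172 peaks per 100 kb over these 4 classes in replicate 1 and 1.04, 0.782, 0.498 and 0.206 in replicate 2. The share of genes with a region hardly moved across these classes, at 46.9%, 50.5%, 53.2% and 45.5%. The local background at the regions fell with length too, with medians of 4.59, 4.24, 4.13 and 3.12 fragments in replicate 1 and 4.91, 4.48, 4.28 and 3.35 in replicate 2, and its part in the decline was not tested.

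**Figure D1:**
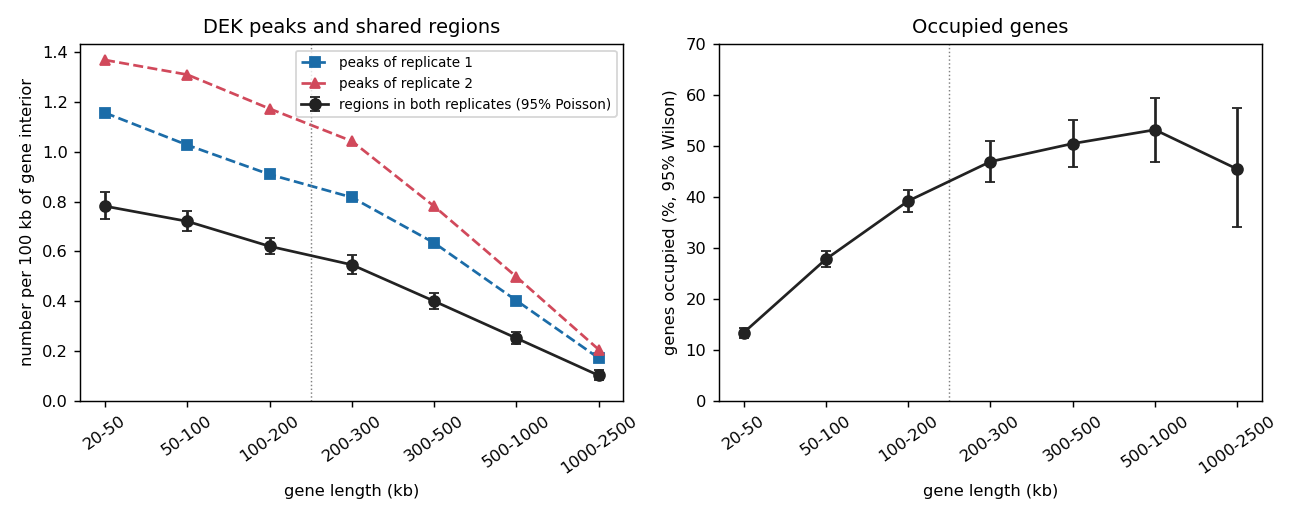
Left, regions present in both replicates (black, with 95% Poisson intervals) and peaks of each replicate per 100 kb of gene interior, by gene length. Right, the percentage of genes with at least 1 region (95% Wilson intervals); the dotted lines mark 200 kb. Density falls from class to class, to 0.102 regions per 100 kb in genes of 1000 to 2500 kb, while occupancy of the long genes stays between 45.5% and 53.2%.

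The 658 occupied genes made up 49.1% of the long genes (Wilson interval 46.4 to 51.8%), against 20.8% of all 13798 protein-coding genes over 10 kb, most of which have far less interior to hold a region. The regions were spread unevenly: 234 genes held exactly 1, 310 held 2 to 4, 90 held 5 to 9 and 24 held 10 or more. The 134 genes with most regions, at least 4 regions each, held 48.4% of the 1902 pairs of region and gene (9 regions lie in 2 overlapping long genes). Peak counts per gene followed each other between the libraries over the 1340 genes (Spearman's rho 0.839, Pearson's r 0.912, a description across genes that share libraries and differ in length).

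Of the 682 empty genes, 355 held no peak of either library, 76 held peaks of replicate 1 alone, 153 of replicate 2 alone, and 98 held peaks of both libraries that did not overlap. Occupied genes had a median length of 324.1 kb, against 310.5 kb for empty genes. Among genes whose strand is known, a shared region lay within 5 kb of the annotated start in 51 of 555 occupied genes (9.19%, Wilson interval 7.06 to 11.9%) and in 21 of 556 empty genes (3.78%, 2.48 to 5.70%). At the annotated end the counts were 35 (6.31%, 4.57 to 8.64%) in occupied genes and 9 (1.62%, 0.854 to 3.05%) in empty genes. Empty interiors thus went with emptier ends.

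The 10 densest long genes held between 3.76 and 7.39 regions per 100 kb. CMIP, an adaptor of T-cell signalling, held 23 and 27 peaks in replicates 1 and 2 and 19 shared regions, 7.39 per 100 kb, and SEPTIN9 held 18 and 23 peaks and 15 regions, 7.17 per 100 kb. SPTBN1, a beta-spectrin of the membrane skeleton on chromosome 2, held 14 peaks in each library and 10 regions in 215.1 kb, 4.88 per 100 kb. NR6A1, an orphan nuclear receptor on chromosome 9, held 11 and 13 peaks and 11 regions, 4.51 per 100 kb. MYLK, the myosin light chain kinase, held 13 and 16 peaks and 11 regions, 4.16 per 100 kb. The long genes together held 0.346 per 100 kb, and those of 200 to 300 kb, the length class of all 5, held 0.547. The 5 were picked by this same density.

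The next 5 by density lay between 3.76 and 4.14 regions per 100 kb. MICAL2 held 12 and 11 peaks and 10 regions, and AFF1, a scaffold of the super elongation complex, held 9 and 13 peaks and 8 regions. ABTB2 held 12 and 9 peaks and 8 regions, TNS3, a tensin of focal adhesions, held 15 and 14 peaks and 12 regions, and ANKRD11, a chromatin regulator that binds histone deacetylases, held 12 and 13 peaks and 8 regions. Over all genes with regions, the median local background at the regions was 4.26 and 4.50 fragments in replicates 1 and 2. All 10 densest genes stood above this in both replicates. Background was highest in SEPTIN9, with 10.8 and 11.9, and in CMIP, with 9.17 and 9.85. SPTBN1 had 7.97 and 8.88, NR6A1 6.34 and 7.38 and ABTB2, the lowest, 4.52 and 5.12. The part of the background in the counts was not tested.

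Single regions in these genes were mostly of ordinary strength. In MYLK fold enrichment ran between 3.17 and 5.51 in replicate 1 and between 2.95 and 5.86 in replicate 2, with medians of 3.93 and 4.09, and its leading region, chr3:123688320-123688738, lay 195.8 kb from the start. In SPTBN1 it ran between 2.49 and 4.45 in replicate 1 and between 2.76 and 4.92 in replicate 2. In ABTB2 the leading region, chr11:34204850-34205276, reached 6.30 and 5.4. The leading region of ANKRD11, chr16:89395124-89396264, reached 5.53 and 4.92 over more than 1 kb. That dense genes held many regions follows from how they were chosen, and in most of them the regions were not stronger than in long genes as a whole.

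**Figure D2:**
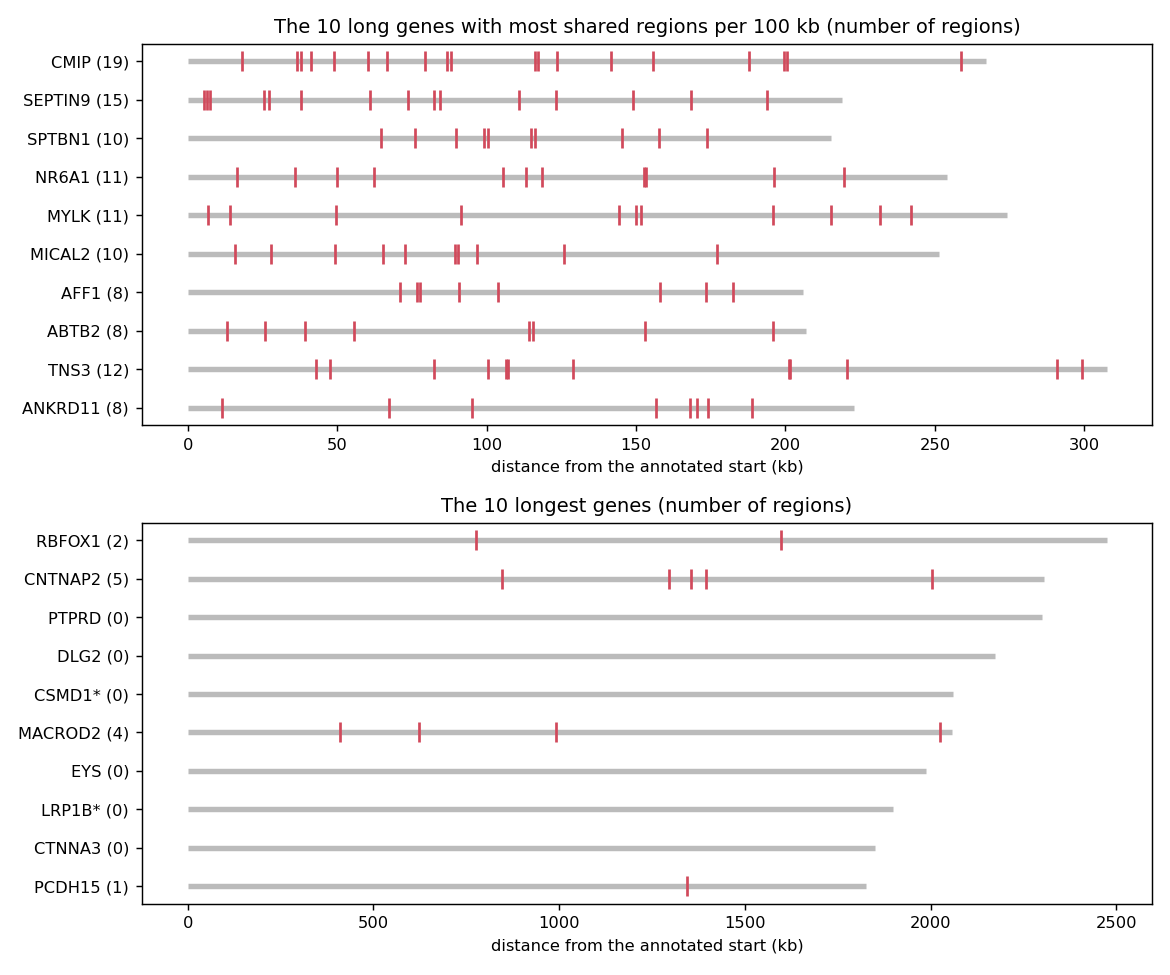
Positions of shared regions (red ticks) along the 10 densest long genes (top) and the 10 longest genes (bottom), in kb from the annotated start, with the number of regions in brackets; an asterisk marks a gene of unknown strand, drawn from its lower coordinate. Regions are spread along most of the dense genes, from 8 to 19 each, while 6 of the 10 longest genes have none.

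By number of regions, CMIP was followed by KCNMA1 and SEPTIN9 with 15 each, PRKCE, a protein kinase C isoform, with 14, and TRIO, a guanine nucleotide exchange factor, with 13. KCNMA1 is 768.2 kb long, with 20 and 22 peaks in replicates 1 and 2, and a single stretch of 291.1 kb in it had no region. Its leading region, chr10:77416349-77416893, 221.2 kb from the start, had a fold enrichment of 6.03 and 5.17. Of the 24 genes with 10 or more regions, 8 belong to the list of actin and adhesion genes described next: SEPTIN9, TRIO, TNS3, MACF1, ARHGAP26, MICAL2, FHOD3 and LPP. That list holds 50 of the 1340 long genes and was chosen with earlier results of these data known.

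The lists of genes by function were chosen with earlier results of these data known, and they overlap in part: 337 long genes stand in at least 1 of 11 lists and 37 in several. Long genes of the actin cytoskeleton and focal adhesions, with their signalling regulators, were occupied in 42 of 50 cases (84%), with 1.04 regions per 100 kb, against 49.1% and 0.346 for all long genes. Peaks of replicate 1 gave 1.39 per 100 kb and those of replicate 2 gave 1.78 in this list, against 0.538 and 0.671 for all long genes. Its members of 200 to 500 kb were occupied in 35 of 42 cases with 1.17 regions per 100 kb, against 502 of 1037 and 0.466 for all genes of that length. TRIO held 3.64 regions per 100 kb. The 8 empty members were DOCK9, SYNE2, VAV3, MYO18B, PDLIM5, ARHGAP15, TIAM1 and SORBS2, so the list also holds exchange factors (VAV3, TIAM1) with no region. The median background at this list's regions was 5.46 and 5.84 fragments in replicates 1 and 2, against 4.26 and 4.50, and its part was not tested.

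Chromatin regulators were occupied in 18 of 25 cases (72%), with 0.724 regions per 100 kb, against 49.1% and 0.346 for all long genes. Their 22 genes of 200 to 500 kb were occupied in 68.2% of cases with 0.860 per 100 kb. All genes of that length stood at 48.4% and 0.466. AFF1 held 4.08 per 100 kb, and RERE, a nuclear receptor coregulator, held 9 at 1.98. EYA1, a transcriptional coactivator with phosphatase activity, was the longest empty member. Transcription factors were occupied in 24 of 46 cases (52.2%, near the 49.1% of all long genes), with 0.463 per 100 kb. The densest was TEAD1, the DNA-binding partner of YAP, with 7 regions at 2.69. It was followed by RUNX1 with 6 at 2.39 and by the homeobox gene CUX1 with 9 at 1.97. The retinoic acid receptor gene RARB, 768.6 kb long, was empty.

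Receptor and growth factor signalling genes (21 of 38 occupied, 0.383 per 100 kb), renal tubule and epithelial polarity genes (20 of 32, 0.375), extracellular matrix genes (19 of 39, 0.371) and tumour suppressors and oncogenes (17 of 29, 0.344) had densities near the 0.346 of all long genes when their genes were pooled. Among genes of 200 to 500 kb the tumour genes held 0.816 regions per 100 kb, receptor signalling genes 0.697, renal and epithelial genes 0.635 and matrix genes 0.459, against 0.466 for all genes of that length. Among genes over 500 kb the same lists held 0.213, 0.246, 0.264 and 0.240, against 0.199. In the first of these lists RPTOR, the mTORC1 scaffold, held 11 regions and PRKCE 14, at 2.67 and 2.66 per 100 kb, while the receptor phosphatase PTPRD was empty. Among epithelial genes the ubiquitin ligase gene NEDD4L held 10 regions at 2.88 per 100 kb and CUBN, the receptor cubilin of the proximal tubule, held 6 at 2.03. COL4A2, a basement membrane collagen, held 7 regions at 3.57 per 100 kb, whereas the glypican gene GPC5 was empty. CDK6, a cell cycle kinase, held 6 regions at 2.71 per 100 kb, and ETV6, an ETS-family repressor, held 4 at 1.70.

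Cyclic nucleotide phosphodiesterases had 6 of 10 genes occupied (60%) and 0.257 regions per 100 kb, with PDE4D empty. All long genes stood at 49.1% and 0.346. Neurotransmitter receptors and ion channels were occupied in 17 of 44 cases (38.6%), with 0.199 per 100 kb, and KCNMA1 alone held 15 of their regions. Their 28 genes of 200 to 500 kb were occupied in 35.7% of cases with 0.209 per 100 kb. All genes of that length stood at 48.4% and 0.466. Over 500 kb this list held 0.190 per 100 kb, against 0.199 for all such genes. Neuronal adhesion genes were occupied in 17 of 40 cases (42.5%), with 0.163 per 100 kb. Since 36 of these 40 exceed 500 kb, the value to set beside theirs is that of genes over 500 kb: 0.156 for the list against 0.199 for all 303 such genes. The place of the neuronal list below all long genes in its share of occupied genes turned round with the strictness of the peaks. With a −log10 q of at least 5 it stood at 35% against 27.1% of all long genes. With a fold enrichment of at least 5 it stood at 17.5% against 7.76%. These settings were chosen for the lists after seeing the data. No share of all genes over 500 kb was computed at them, so the part of gene length in this turn was not tested. Common fragile site genes, all over 500 kb, had the lowest density, 0.0921 per 100 kb. Of these genes 12 of 25 were occupied (48%), against 51.5% of all genes over 500 kb. Their median length was 1195.7 kb, and all genes of 1000 to 2500 kb held a like 0.102 per 100 kb. Among them LSAMP, a neuronal adhesion gene, held 2 regions at 0.32 per 100 kb.

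**Figure D3:**
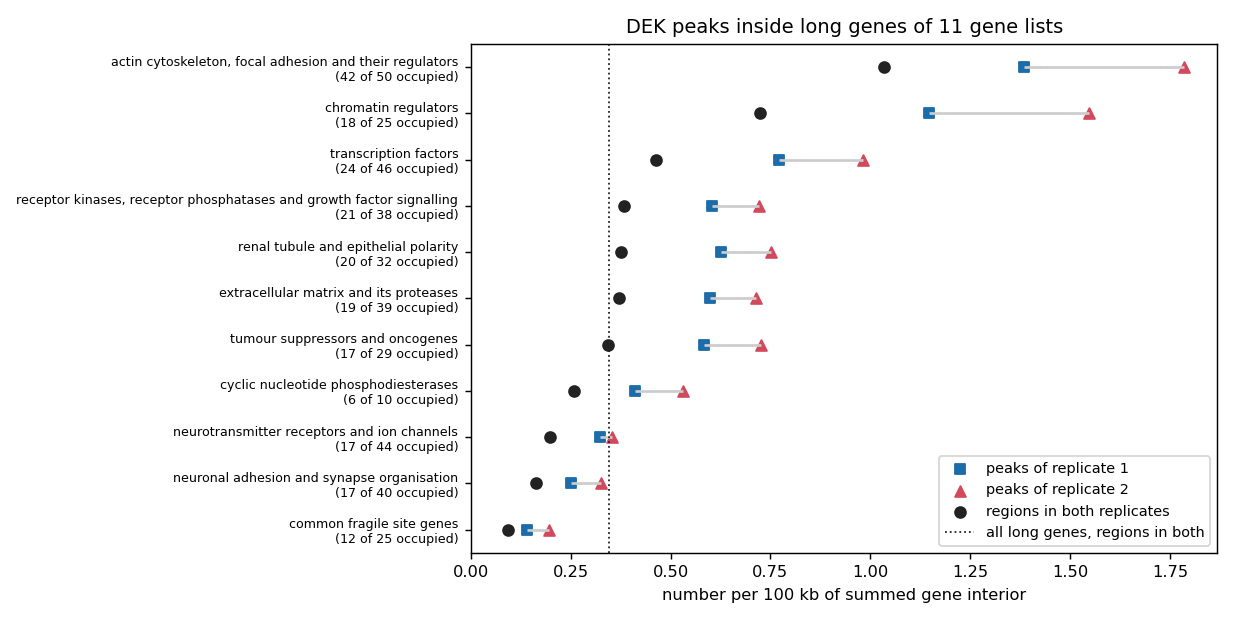
Regions in both replicates (black) and peaks of replicates 1 and 2 (blue squares and red triangles) per 100 kb of the long genes of 11 lists, with the value of all long genes dotted. Actin and adhesion genes stand highest with 1.04 regions per 100 kb and fragile site genes, most of them over 1 Mb, lowest with 0.0921.

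Beyond 1 Mb, 30 of 66 genes held a region. Of the 10 longest, RBFOX1, an RNA splicing factor of 2473.6 kb, held 4 and 6 peaks in replicates 1 and 2 and 2 shared regions. CNTNAP2, a neurexin-like adhesion protein, held 7 peaks in each library and 5 shared regions. MACROD2 held 4 peaks in each library, all shared, with a stretch of 1034.9 kb free of regions, and PCDH15, a protocadherin of hair cells, held 3 and 2 peaks and 1 region. The other 6 were empty and nearly free of peaks: PTPRD held 1 and 2, DLG2 0 and 1, CSMD1 none, EYS 3 and 1, LRP1B 0 and 1, and CTNNA3 0 and 2.

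The longest genes were not all bare. KAZN, the gene of kazrin, a protein of epithelial junctions, is 1225.2 kb long and held 11 regions, all but 5 of them beyond 1 Mb from its start, with fold enrichment between 2.59 and 5.00 in replicate 1 and between 3.07 and 5.19 in replicate 2. TENM3, a teneurin, held 7 regions. FHIT, which spans the best-known fragile site, held no peak of either library, and ROBO2 and PDE4D each held 0 and 1 peaks in replicates 1 and 2.

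Over equal parts of the interior the regions were spread evenly. Over the 1111 long genes whose strand the RefSeq windows give, each of 10 equal parts of the interior held between 8.88% and 11% of 1611 assignments. Measured from the annotated start, 5 to 10 kb inside the gene held 0.396 regions per 100 kb, 10 to 20 kb 0.451, 20 to 50 kb 0.451, 50 to 100 kb 0.498 (Poisson interval 0.441 to 0.560) and 100 to 200 kb 0.342 (0.298 to 0.390). Distances were counted only as far as the middle of each gene, so the last stretch holds more of the longer genes. The stretch 1 to 5 kb from the start, outside the limits set for the members, held 30 shared regions, 0.676 per 100 kb (0.456 to 0.965). Its peaks per 100 kb were 1.04 and 1.69 in replicates 1 and 2. The first 1 kb held only 3 shared regions, 0.270 per 100 kb (0.0557 to 0.790). Measured back from the annotated end, the values from 5 kb to 200 kb over the same stretches were 0.325, 0.380, 0.458, 0.467 and 0.344. Nearer the end, 1 to 5 kb held 0.452 and the last 1 kb 0.0904, with 1 region. Neighbouring regions of a gene, 1244 pairs, lay a median of 32.9 kb apart, and 240 pairs (19.3%) lay within 10 kb of each other. Other annotation seldom covered the regions: 151 (7.98%) lay in a long non-coding RNA gene, 27 (1.43%) in a shorter protein-coding gene and 7 in a pseudogene.

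The regions had nearly the same median strength as all other shared regions pooled but held fewer strong ones. Median fold enrichment was 4.04 in replicate 1 and 4.07 in replicate 2 for the 1893 regions, against 4.12 and 4.09 for the other shared regions. Among these, the regions inside shorter protein-coding genes had medians of 4.0004 and 3.9594 in replicates 1 and 2, slightly below those in long genes. A fold enrichment of 5 or more was reached by 14.6% and 14.2% of the regions in replicates 1 and 2, against 19.3% and 19.7% of the other shared regions. This share was not computed for the interiors of shorter genes alone. The median pileup, the number of fragments at a summit, was 21 and 22, so a single fold value carries a wide counting error. Between the libraries, fold enrichment followed less closely inside long genes (Spearman's rho 0.522 over 1893 regions) than at the other shared regions (rho 0.637), over regions that share libraries and background. Summits of the libraries lay a median of 75 bp apart, and 62.0% lay within 100 bp.

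A few regions stood well above the rest in both libraries. The strongest, chr12:2255803-2256118, lay 285.2 kb into CACNA1C, the pore-forming subunit of an L-type calcium channel, with a fold enrichment of 17.1 and 14.8 and a pileup of 53 and 54 in replicates 1 and 2. It alone passed 10-fold in both libraries. KALRN, an exchange factor related to TRIO, followed at chr3:124110056-124110311 with 12.6 and 9.45, NTM, a neuronal adhesion gene, at chr11:131680311-131680751 with 9.73 and 10.8, and PDZRN4 at chr12:41363536-41363828 with 10.6 and 9.38. DOCK1, a Rac exchange factor, had 9.32 and 9.44 at chr10:126947282-126948397. FGGY, a carbohydrate kinase gene, had 8.39 and 9.43. The local background was 2.15 and 2.71 fragments at the CACNA1C region, 2.56 and 2.28 in KALRN and 2.08 and 2.62 in NTM. In PDZRN4 it was 1.93 and 2.09, the lowest value of all regions, under a pileup of 30 and 28. It was 4.04 and 4.82 in DOCK1 and 4.49 and 5.57 in FGGY, against medians of 4.27 and 4.50 over all regions. CACNA1C held 2 regions, NTM 3 and PDZRN4 1, between 0.266 and 0.314 per 100 kb and so below the 0.346 of all long genes. KALRN held 5 at 0.732 per 100 kb, DOCK1 5 at 0.931 and FGGY 3 at 0.657, above it. Beside genes of like length the picture differed. All genes of 500 to 1000 kb held 0.252, below CACNA1C at 0.279 and NTM at 0.314, and below KALRN and DOCK1. All genes of 300 to 500 kb held 0.400, above PDZRN4 at 0.266 and below FGGY.

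The remaining 4 of the 10 strongest were in RGPD2, COBL, TYW1 and TRPM3, between 6.77 and 7.93 over both libraries. COBL, an actin nucleator, had 7.02 and 7.21, and TRPM3, a cation channel, had 6.91 and 7.56. The region in RGPD2, a member of a family of near-identical duplicated genes, lay within 1 kb of the mitochondrial pseudogenes MTATP8P2 and MTATP6P28, and the sources used here give no rule for reads that align to several places, so its value is uncertain.

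**Figure D4:**
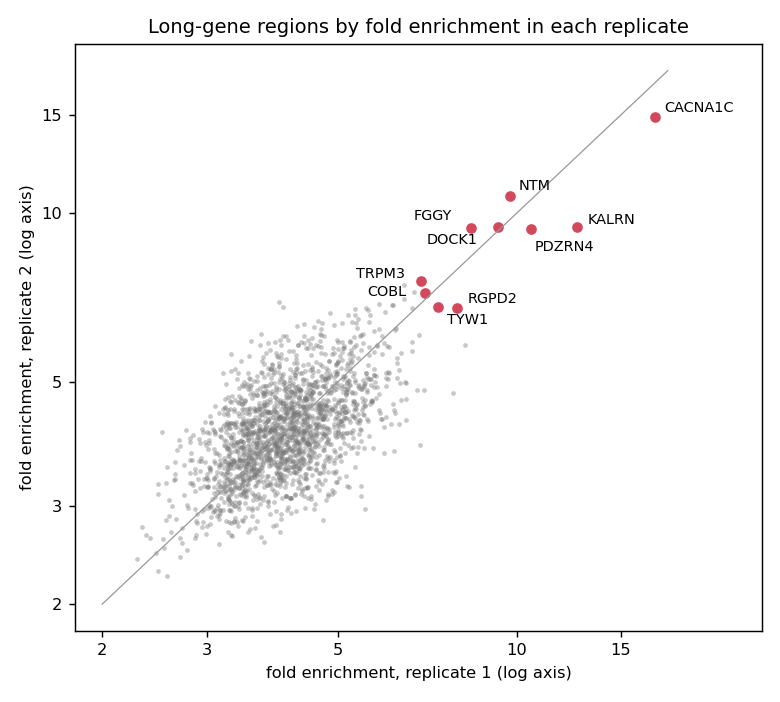
Fold enrichment of the 1893 regions in replicate 1 (horizontal) and replicate 2 (vertical), both on log axes, with the line of equal values; the 10 strongest regions are red and carry their gene. The region in CACNA1C stands apart at 17.1 and 14.8, against medians of 4.04 and 4.07 over all regions.

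Density also differed between chromosomes. Long genes of chromosome 17 held 0.761 regions per 100 kb (Poisson interval 0.618 to 0.926), with 24 of 35 occupied, and those of chromosome 16 held 0.579. Single genes weighed on these values: CMIP held 19 of the 87 regions of chromosome 16, and SEPTIN9 held 15 of the 99 of chromosome 17. Long genes of chromosome 8 held 0.145 (0.106 to 0.194), with 19 of 69 occupied, and those of chromosome 14 held 0.199. The median local background at the regions was 4.93 and 5.36 fragments in replicates 1 and 2 on chromosome 17, against 3.47 and 3.75 on chromosome 8. Over the 22 chromosomes density and background moved together (Spearman's rho 0.833 in replicate 1 and 0.855 in replicate 2, a description over points that share both libraries). The part of the background in these densities was not tested.

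**Figure D5:**
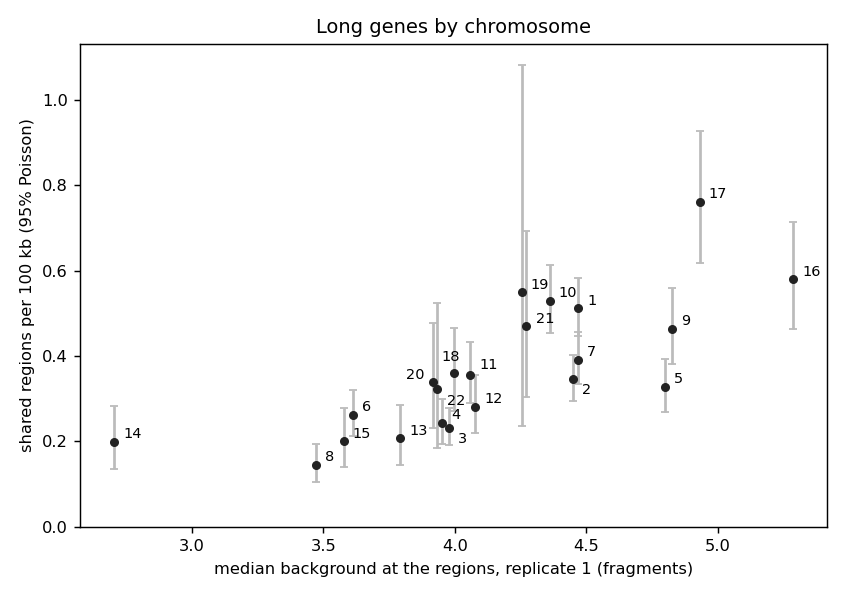
Shared regions per 100 kb of long genes (95% Poisson intervals) against the median local background at the regions in replicate 1, in fragments, with 1 point for each of 22 chromosomes. Chromosomes 16 and 17 stand high on both axes and chromosomes 8 and 14 low on both.

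The background moved in the same way with the number of regions in a gene. Its median was 3.21, 3.89, 4.83 and 6.32 fragments in replicate 1 and 3.41, 4.09, 5.22 and 6.80 in replicate 2 for regions of genes with 1, with 2 to 4, with 5 to 9 and with 10 or more regions. Fold enrichment ran the other way, with medians of 4.24, 4.14, 3.96 and 3.62 in replicate 1 and 4.31, 4.17, 3.98 and 3.67 in replicate 2. Regions of crowded genes thus had a higher local background and lower fold enrichment in both libraries. Fold enrichment has that background in its denominator, and the listed peaks had passed a q limit. The opposite courses are therefore not independent observations. What part the background had in the number of peaks called was not tested.

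At the limits of the choice of members, the genes just over 200 kb were FREM2 (200055 bp, no region), ST6GALNAC5 (200067 bp, 2 regions) and LRRC49 (200281 bp, no region). Just under it stood LRCH1 (199872 bp, 4 regions), FUT9 (199639 bp, no region) and ADAMTS20 (199441 bp, no region). The regions nearest to a gene end among those kept lay 5306 bp from it in ANKS1A, with a fold enrichment of 3.47 and 3.53, 5310 bp in ACTR3C and 5461 bp in LAMA3. Just left out were regions 4975 bp from an end in RARB, with 4.53 and 3.6, 4965 bp in ADAMTSL1 and 4947 bp in CUBN, out of 71 shared regions that lay inside long genes but under 5 kb from an end.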

How the data were processed

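The authors deposited 1 peak list per library on hg38. Per the submitters' processing notes MACS2 2.2.7.1, Bowtie2 2.2.5 and cutadapt 1.18 were among the tools, with no role stated, and the sources used here do not give whether a control library was used. The deposited score is a whole number tied to the −log10 q, the fold enrichment is a linear ratio at the summit, and the −log10 p and −log10 q values deposited by the authors have a smallest −log10 q of 1.309 in each list on chromosomes 1 to 22. Peaks on other chromosomes, 1.75% and 1.77% of replicates 1 and 2, were left out. These values describe peaks within their library, and read depth is unknown.

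Regions, interiors and intervals were computed with Python 3.11.15, numpy 2.4.6, pandas 2.3.3 and scipy 1.17.1 and tested on simulated peaks. The pileup and local background of each summit were solved from the fold, taken as (pileup + 1) over (background + 1), and the Poisson p, which left a relative error of at most 8.44e-06. Intervals (95%) cover counting error only, and shares and densities are descriptions with no test. Genes came from a RefSeq table of GRCh38.p14 with 1 row per gene. The strand came from the RefSeq promoter windows, for 1111 (82.9%) of the long genes. Exon and intron classes and motifs in the regions themselves were not analysed here, and the planned motif search was made in the promoter windows instead.

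The members, lists and settings were chosen with earlier results of these data known. Named genes were the 10 densest with at least 3 regions, the 5 with most regions, the 10 longest, the 10 longest empty, the genes of the 10 strongest regions by mean percentile of fold enrichment, the 3 densest and the longest empty gene of each list, and those next to each limit; a few of these are not reported here. Other genes named, such as KAZN, TENM3, the empty actin genes, the members of that list with 10 or more regions and those with an internal start, were chosen after their values were seen. Alternatives left out each library and changed the overlap, peak threshold, summit, gene length, and distances to gene ends.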

Additional observations from a re-analysis of the deposited data

How the results depend on the processing

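The ratio of long to shorter genes stayed below 1 under all 13 alternatives. Single libraries, without replicate 1 or without replicate 2, gave 2945 to 3679 regions, 0.538 to 0.672 per 100 kb, 62.1 to 67.8% of long genes occupied, a median fold enrichment of 3.88 to 3.94 and a ratio of 0.531 to 0.535. With summits of the libraries within 100 bp these were 1184, 0.216, 40.5%, 4.11 and 0.496; with a −log10 q of at least 5, 657, 0.120, 27.1%, 4.56 and 0.457; with a fold enrichment of at least 5, 112, 0.0205, 7.76%, 5.68 and 0.475. A reciprocal overlap of 50% gave 43.3% occupied and a fold of 4.10. A gene length of at least 100 kb gave 3345 regions, 43.3% occupied, a fold of 4.03 and a ratio of 0.575; at least 300 kb gave 1138 regions, a fold of 4.09 and a ratio of 0.421; at least 500 kb gave 488 regions, 0.197 per 100 kb, a fold of 4.16 and a ratio of 0.324. Distances of 1 kb and 20 kb to gene ends gave ratios of 0.471 and 0.514. Of 50 actin genes 9 stayed occupied at a fold enrichment of at least 5, and 7 of 40 neuronal adhesion genes, while other settings gave 32 to 45 and 14 to 24. Stricter peaks leave fewer regions by construction; the cause of the other shifts was not tested. No paired analysis was possible because there was 1 group only.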

Other observations

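Long genes of the X chromosome, which the choice of members leaves out, were barer than the long genes of chromosomes 1 to 22. Of 56 such genes 19 were occupied, with 29 regions in 23.98 Mb, or 0.121 per 100 kb, against 0.346 on chromosomes 1 to 22. DMD, which encodes dystrophin and is 2220.2 kb long, held no peak of either library. IL1RAPL1, a synaptic receptor gene of 1369.3 kb, held 1 peak in each library and no shared region, and DIAPH2, a formin gene of 920.2 kb, held 2 and 3 peaks in replicates 1 and 2 and 2 shared regions. These genes were not part of any comparison, and the part of the local background was not tested.

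Windows before the outermost annotated starts of occupied long genes read differently from the internal starts that carried a region. The median GC content was 48.4% in the 25 internal windows with a region and 49.2% in the 1017 internal windows without one, against 66.8% in the 455 outermost windows of occupied genes and 65.4% in those of 462 empty genes. The median number of CpG dinucleotides was 4, 5, 22 and 20 in the same sets. The GC box GGGCGG was found in 24% of internal windows with a region and in 65.3% of outermost windows of occupied genes. In these letters internal starts with and without a region lay close together, and so did the outermost starts of occupied and empty genes.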
